A study of Danio rerio with 6 samples.

Results

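Glycolysis and gluconeogenesis transcripts were described in whole embryos of sas10 mutant zebrafish and of wild type. The members were the genes of the count table whose zebrafish symbol begins with the name of a glycolytic, lactate-forming or gluconeogenic enzyme, or of a kinase that regulates the pathway. That rule took 56 of 32520 genes, of which 55 encode such enzymes. The other, pkmyt1, matched only by its letters: it encodes an inhibitory kinase of Cdk1. The name table gives 24 of the members a symbol that a second member also has, so the chromosome is added to those names, as in aldoa (chr12).

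Glycolysis splits glucose into pyruvate and gains ATP and NADH, and lactate dehydrogenase returns the NADH to NAD+. Gluconeogenesis runs the shared reversible steps backwards and bypasses the irreversible ones with its own enzymes, above all in liver, kidney and intestine. Most steps are served by several isozymes, each with its own tissues: in mammals the L-type pyruvate kinase belongs to liver and other gluconeogenic tissue, the M-type to muscle, and enolase 2 to brain. Zebrafish, like other teleosts, kept duplicates of many of these genes.

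The sas10 mutants and the wild type were each sampled as 3 libraries of polyA RNA at 5 days post fertilization. The labels give genotype, tissue and age, and name neither the allele, the strain, the clutch nor the number of embryos in a library. They call the libraries biological repeats, so the p-values below measure the spread between these samples. In the zebrafish genome, sas10 goes by the symbol utp3, and its protein works in the nucleolus on the precursor of the small ribosomal subunit.

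Libraries held 17599625 to 19718753 counts. The targeted transcript, utp3, was at 10.7, 11.3 and 10.5 CPM in the mutants and at 35.0, 34.7 and 27.2 CPM in wild type, where CPM is counts per 1000000 on scaled library sizes. The genotypes differed widely: 13508 of 21708 genes tested, or 62.2%, passed edgeR's quasi-likelihood test at a Benjamini-Hochberg adjusted p under 0.05, which is the meaning of "rose" and "fell" below. The share was 30.5% for genes that rose in the mutants and 31.8% for genes that fell. Of the libraries, headed s1, s2 and s3 in the mutants and wt11, wt12 and wt13 in wild type, wt11 stood furthest from its own group on the second principal component (42.3, against -27.4 to 9.3 in the other libraries).

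All 56 members passed the filter on low counts. Of these, 10 rose and 25 fell in the mutants, and 21 did not pass the test. The called share was 62.5%, near the 62.2% of all genes tested, so the number of called members is not itself a result about them. The split was 17.9% higher and 44.6% lower, beside 30.5% and 31.8% over all genes tested, and the median log2 fold change, mutant over wild type, was -0.31 for the members and -0.04 for all genes tested. Without wt11 the counts were 13 higher and 21 lower, beside 7129 higher and 7138 lower of the 22054 genes tested in that fit. Counts for the roles and enzyme families below are likewise to be read beside the shares over all genes tested. In bulk RNA, fewer cells of a type and less RNA per cell cannot be told apart, and this holds for every difference below.

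Most called differences were moderate: 11 of the 35 were under 1.5-fold, 13 lay between 1.5-fold and 2-fold, and 11 were 2-fold or more. Higher by at least 2-fold were 4 members (13.2% of all genes tested were), and lower by at least 2-fold were 7 (16.4% of all genes tested were). The 4 were pfkfb3, hk2, g6pc1 (chr3) and pfkfb4. The 7 included fbp1b, pklr, ldhbb, pfkm (chr6), fbp2 and pfkfb4a. The libraries of the genotypes did not overlap for 36 members, 10 with every mutant library above wild type and 26 with every mutant library below, and 20 overlapped. Of all genes tested 67.6% did not overlap, 33.5% with the mutants above and 34.1% with the mutants below.

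**Figure D1:**
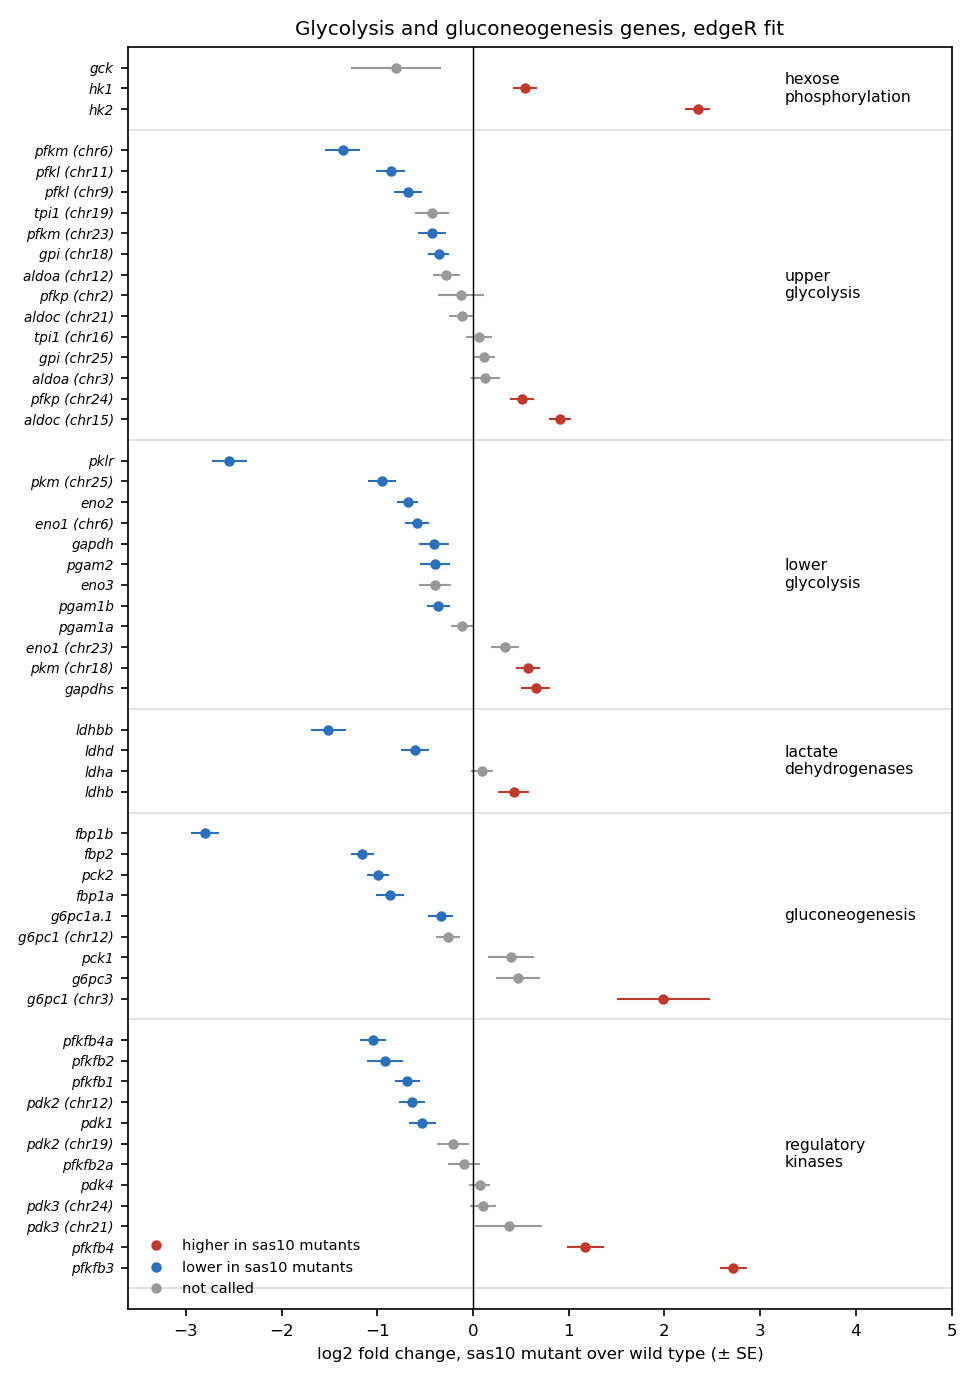
Log2 fold change, sas10 mutant over wild type, of pathway enzymes with its standard error, grouped by role in the pathway and ordered within each role. Points far from 0 occur on both sides: fbp1b and pklr lie far to the left, and pfkfb3 and hk2 lie furthest to the right.

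Glucose enters the pathway through hexokinases, which phosphorylate it. Both hk1 and hk2 rose in the mutants. hk2, in mammals the hexokinase of muscle and fat and of many growing cells (ENSDARG00000101482, GRCz11 chr5:13870340-14004206, plus strand), was at 40.04, 51.1 and 46.7 CPM in the mutants and at 9.82, 8.60 and 8.70 CPM in wild type. Every mutant library lay more than 4-fold above every wild type library. The log2 fold change was 2.35 ± 0.13 (SE), or 5.08-fold, with an adjusted p of 5.65e-08 by edgeR's quasi-likelihood test.

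hk1, the isozyme found in most tissues (ENSDARG00000039452, chr13:22972888-23007813, minus strand), was at 118, 129 and 132 CPM in the mutants and at 72.1, 89.1 and 97.7 CPM in wild type. The groups did not overlap, and the log2 fold change was 0.55 ± 0.12 (adjusted p = 0.0025). By length, hk1 stayed the more abundant of the pair, at 59.7 ± 4.62 TPM in the mutants and 43.5 ± 11.2 TPM in wild type (SD, n = 3 each), where TPM is transcripts per 1000000 computed from counts and exon lengths. hk2 averaged 23.0 ± 3.08 TPM in the mutants and 4.76 ± 0.317 TPM in wild type.

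gck, the liver and pancreatic islet glucokinase, was near the limit of detection, at 0.650, 0.868 and 0.777 CPM in the mutants and 2.39, 1.05 and 0.618 CPM in wild type. The wild type library wt11 was high and the groups overlapped (log2 fold change -0.80 ± 0.47, adjusted p = 0.158). With each library left out in turn, the log2 fold change of gck ran from -1.14 to -0.11 and the adjusted p from 0.0411 to 0.840. Only the fit without wt13 passed the test, at -1.14 with an adjusted p of 0.0411.

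Upper glycolysis, from glucose-6-phosphate to the triose phosphates, had 15 members, of which 2 rose and 6 fell; their median log2 fold change was -0.28.

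Aldolase splits fructose-1,6-bisphosphate into the triose phosphates. aldoa (chr12), a copy of the gene for the muscle-type enzyme and the most abundant of the upper glycolysis members by length over all libraries, was at 594, 627 and 531 CPM in the mutants and 805, 717 and 607 CPM in wild type. The groups overlapped, and the log2 fold change of -0.28 ± 0.14 did not pass the test (adjusted p = 0.103; 0.0215 without wt13 and 0.0251 with upper-quartile scaling). The chromosome 3 copy of aldoa had a log2 fold change of 0.13 ± 0.15, which turned to -0.0062 with upper-quartile scaling and passed the test without wt11 (0.30, adjusted p = 0.0284).

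aldoc encodes the brain-type aldolase. The chromosome 15 copy (ENSDARG00000057661, chr15:16079586-16098531, minus strand) was at 28.6, 26.7 and 25.6 CPM in the mutants and at 14.2, 15.0 and 14.0 CPM in wild type. All mutant libraries were higher, by a log2 fold change of 0.91 ± 0.11 (adjusted p = 3.56e-05). The far more abundant chromosome 21 copy had -0.12 ± 0.13 and did not pass the test.

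Phosphofructokinase makes fructose-1,6-bisphosphate in the step that commits sugar to glycolysis. Of its 6 genes, 4 fell, 1 rose and 1 did not pass. The largest change was that of pfkm (chr6), a muscle-type subunit (ENSDARG00000060797, chr6:39737408-39765546, minus strand), at 7.69, 9.71 and 7.67 CPM in the mutants and 17.98, 19.3 and 27.2 CPM in wild type. No mutant library reached the lowest wild type library, and the log2 fold change was -1.36 ± 0.18 (adjusted p = 4.95e-05).

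Both liver-type genes fell, pfkl (chr11) by 0.86 and pfkl (chr9) by 0.68 on the log2 scale, and so did pfkm (chr23), by 0.43. That last call was lost without s1, s3 or wt11 (adjusted p of 0.0551 to 0.102). pfkp (chr24), a platelet-type gene and the most abundant of the 6 by length in the mutants, rose by 0.52 ± 0.12 (adjusted p = 0.0036), and pfkp (chr2) had -0.13 ± 0.24, with the sign changing when s1 or wt13 was left out.

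Of the 4 isomerase genes at this end of the pathway 1 fell. Glucose-6-phosphate isomerase gpi (chr18) fell by 0.36 ± 0.11 on the log2 scale (adjusted p = 0.0151; 0.0549 to 0.0878 without s1, s3 or wt12), and gpi (chr25) had 0.12 ± 0.11, or -0.017 with upper-quartile scaling. Triose phosphate isomerase tpi1 (chr16), which interconverts the triose phosphates, had 0.06 ± 0.14, or -0.075 with upper-quartile scaling. The minor copy tpi1 (chr19) had -0.43 ± 0.18 and did not pass (adjusted p = 0.0523). It passed with upper-quartile scaling, with a stricter filter on low counts, and without s1 or wt13 (adjusted p of 0.0177 to 0.0453).

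Lower glycolysis, from glyceraldehyde-3-phosphate to pyruvate, had 12 members, of which 2 rose (16.7%) and 7 fell (58.3%). The median log2 fold change was -0.40. The number that fell was 4 without s1, s2, s3 or wt11. pklr, the pyruvate kinase of liver and red blood cells in mammals (ENSDARG00000042010, chr16:54450407-54455573, minus strand), was at 41.9, 36.8 and 34.6 CPM in the mutants and at 265, 240 and 159 CPM in wild type. wt13 was the lowest wild type library and still lay well above every mutant library. The log2 fold change was -2.55 ± 0.18 (adjusted p = 6.12e-07), or 5.84-fold lower in the mutants.

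The M-type pyruvate kinase copies moved in opposite directions. pkm (chr25) (ENSDARG00000099860, chr25:29160102-29196558, plus strand) was at 240, 248 and 242 CPM in the mutants and at 573, 431 and 407 CPM in wild type, and fell by 0.95 ± 0.14 on the log2 scale (adjusted p = 0.000151). pkm (chr18) (ENSDARG00000099730, chr18:907266-951570, plus strand) was at 487, 576 and 540 CPM in the mutants and at 373, 337 and 367 CPM in wild type. Neither copy's groups overlapped, and pkm (chr18) rose by 0.57 ± 0.12 (adjusted p = 0.00171). Exons of pkm (chr18) share 17.6% of their bases with dhdh on the other strand, and the counting did not use strand, so reads from the shared bases cannot be told apart.

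Glyceraldehyde-3-phosphate dehydrogenase, the step that yields NADH, also had genes that moved apart. gapdhs, named for a sperm isozyme of mammals (ENSDARG00000039914, chr16:45044642-45069882, minus strand), was at 1257, 1341 and 1191 CPM in the mutants and at 964, 737 and 709 CPM in wild type. All mutant libraries were above wt11, the highest wild type library, and the log2 fold change was 0.65 ± 0.15 (adjusted p = 0.00259). gapdh was at 2114, 1960 and 1849 CPM in the mutants and at 3123, 2476 and 2243 CPM in wild type. It fell by 0.40 ± 0.16 on the log2 scale (adjusted p = 0.0407), a call lost when any library but wt13 was left out (adjusted p of 0.0608 to 0.158) and with no filter on low counts (0.0612).

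Phosphoglycerate mutase and enolase carry the last triose steps before pyruvate kinase. eno2, the neuronal enolase (ENSDARG00000014287, chr19:5072918-5090732, plus strand), was at 70.8, 73.4 and 87.2 CPM in the mutants and at 130, 121 and 121 CPM in wild type. The groups did not overlap, and eno2 fell by 0.68 ± 0.11 on the log2 scale (adjusted p = 0.000248). eno1 (chr6), a copy of the enolase found in most tissues, fell by 0.59 ± 0.12. Its more abundant partner eno1 (chr23) had 0.33 ± 0.15 and did not pass (adjusted p = 0.0709), but did without wt11 (0.51, adjusted p = 0.000887), with DESeq2 (0.0319) and with limma voom (0.0487).

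eno3, the muscle enolase, had -0.40 ± 0.17 and did not pass (adjusted p = 0.0562). It passed with DESeq2, with a stricter filter, with upper-quartile scaling and without wt13 (adjusted p of 0.0074 to 0.0483). pgam1b fell by 0.36 ± 0.12 and pgam2, the muscle mutase, by 0.40 ± 0.15 on the log2 scale, and pgam1a had -0.11 ± 0.11. The calls of pgam1b and pgam2 were lost without s1, s2, s3 or wt11 (adjusted p of 0.0527 to 0.0926 for pgam1b and 0.0742 to 0.145 for pgam2). That of pgam2 was also lost with DESeq2 (0.0512) and limma voom (0.0534). Exons of pgam2 share 18.6% of their bases with those of rpl17, a ribosomal protein gene on the other strand with far more counts.

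Lactate dehydrogenase tetramers of A and B subunits interconvert pyruvate and L-lactate. Of the 4 genes in this group 1 rose (25.0%) and 2 fell (50.0%). ldhbb, a minor B-type gene (ENSDARG00000071076, chr25:3326885-3336587, plus strand), was at 6.93, 8.85 and 8.49 CPM in the mutants and at 29.6, 19.4 and 20.3 CPM in wild type. wt11 was the highest library, and no mutant library came near the wild type range. ldhbb fell by 1.51 ± 0.18 on the log2 scale (adjusted p = 2.42e-05).

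The main B-type gene, ldhb (ENSDARG00000019644, chr4:16828752-16836006, minus strand), was at 567, 557 and 491 CPM in the mutants and at 485, 402 and 315 CPM in wild type. s3 lay just above wt11, so the groups were only narrowly apart. ldhb rose by 0.43 ± 0.16 (adjusted p = 0.0357), a call lost without s1, s2, wt12 or wt13 (adjusted p of 0.0701 to 0.104) and with upper-quartile scaling (0.136). ldha, the A subunit that predominates in mammalian muscle, had 0.09 ± 0.12, or -0.039 with upper-quartile scaling. ldhd, a mitochondrial D-lactate dehydrogenase, was at 8.02, 9.33 and 8.34 CPM in the mutants and 11.2, 13.2 and 14.6 CPM in wild type, and fell by 0.60 ± 0.15 on the log2 scale (adjusted p = 0.00416).

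**Figure D2:**
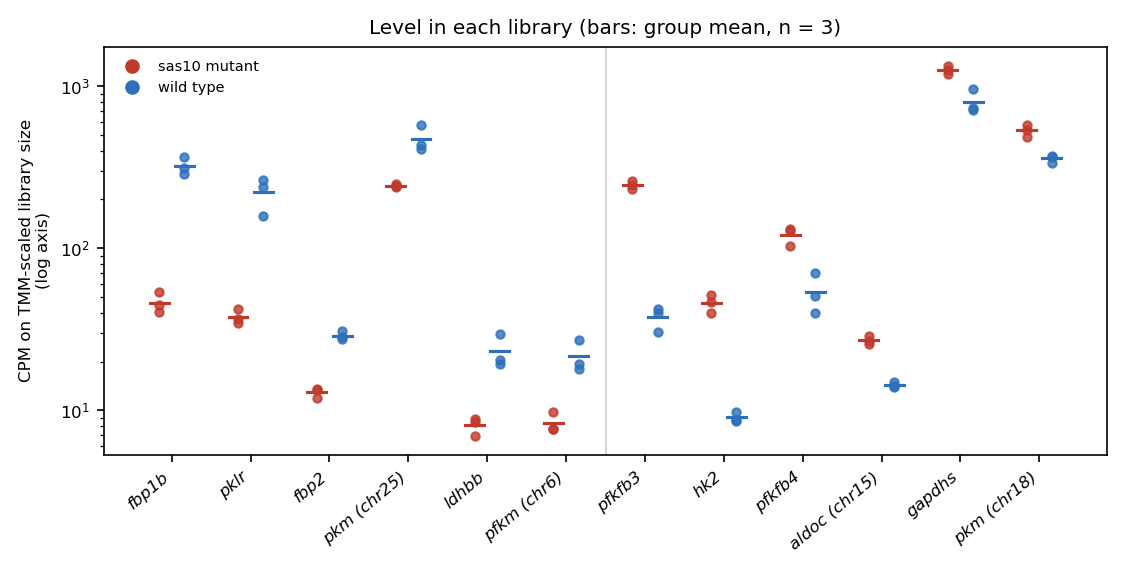
Level of 12 members in each library, as CPM on a logarithmic axis, with sas10 mutants left of wild type for each gene, 1 point per library and a bar at the group mean (n = 3). To the left of the grey line the 6 genes fell and to the right the 6 genes rose, and no mutant library overlaps wild type for any of them.

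Gluconeogenesis enzymes bypass the irreversible steps: phosphoenolpyruvate carboxykinase, fructose-1,6-bisphosphatase and glucose-6-phosphatase. Of 9 members 1 rose and 5 fell, and the median log2 fold change was -0.34. All 3 fructose-1,6-bisphosphatase genes fell. fbp1b (ENSDARG00000020364, chr5:35458190-35462126, plus strand), a copy of the mammalian liver enzyme, was at 53.6, 44.4 and 40.5 CPM in the mutants and at 365, 311 and 289 CPM in wild type. The gap between the groups was more than 5-fold, and the log2 fold change was -2.80 ± 0.15 (adjusted p = 3.01e-08).

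fbp2, the muscle enzyme in mammals (ENSDARG00000012366, chr5:44814064-44829719, minus strand), was at 13.3, 13.6 and 11.96 CPM in the mutants and at 30.9, 28.2 and 27.7 CPM in wild type. It fell by 1.16 ± 0.12 on the log2 scale (adjusted p = 6.9e-06) with no overlap. fbp1a fell by 0.87 ± 0.15 (adjusted p = 0.00034). Exons of fbp2 and fbp1a share 12.6% and 10.5% of their bases with a gene on the other strand that held 41 counts over all libraries.

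Of the 2 phosphoenolpyruvate carboxykinase genes 1 fell. pck2, the mitochondrial form, was at 121, 113 and 104 CPM in the mutants and at 203, 245 and 225 CPM in wild type, and fell by 0.99 ± 0.12 on the log2 scale (adjusted p = 2.1e-05). pck1, the cytosolic form that fasting induces in liver (ENSDARG00000013522, chr6:60055168-60062097, plus strand), was at 561, 395 and 387 CPM in the mutants and at 389, 412 and 218 CPM in wild type. s1 was high, wt13 was low, and the other 4 libraries lay together, so the groups overlapped. The log2 fold change of pck1 was 0.40 ± 0.24 and did not pass the test (adjusted p = 0.171).

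Glucose-6-phosphatase releases free glucose. The chromosome 3 copy of g6pc1 (ENSDARG00000014967, chr3:32906082-32912787, minus strand) rose at a very low level. It had 32, 15 and 21 counts in the mutants and 3, 9 and 5 counts in wild type. Every mutant library was above every wild type library, and the log2 fold change was 1.99 ± 0.48 (adjusted p = 0.00368). A stricter filter on low counts left this gene out, so no gluconeogenesis member rose under it, and 2 rose without wt11. The main copy, g6pc1 (chr12), was at 202, 170 and 192 CPM in the mutants and at 215, 255 and 208 CPM in wild type. All mutant libraries were lower, but the log2 fold change of -0.26 ± 0.12 did not pass the test (adjusted p = 0.0824; 0.0437 without wt11 and 0.0170 with upper-quartile scaling).

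g6pc1a.1 fell by 0.34 ± 0.13 on the log2 scale (adjusted p = 0.0396), a call lost when any library but wt12 was left out (adjusted p of 0.0565 to 0.152), with DESeq2 (0.0854) and with no filter on low counts (0.0678). g6pc3, the form found in most tissues, had 0.47 ± 0.23 (adjusted p = 0.0962; 0.0469 without wt11).

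The regulators of the pathway were of 2 families. The bifunctional PFKFB enzymes make and break fructose-2,6-bisphosphate, the strongest activator of phosphofructokinase and an inhibitor of fructose-1,6-bisphosphatase. Of their 6 genes 2 rose (33.3%) and 3 fell (50.0%). pfkfb3, whose mammalian product strongly favours making the activator (ENSDARG00000001953, chr4:25472505-25485404, minus strand), was at 247, 232 and 261 CPM in the mutants and at 40.01, 41.9 and 30.3 CPM in wild type. It had the highest fold change of all members, 2.72 ± 0.14 on the log2 scale or 6.59-fold (adjusted p = 2.78e-08), with more than 5-fold between the nearest libraries of the 2 groups.

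pfkfb4 (ENSDARG00000029075, chr6:39993605-40029423, minus strand) was at 131, 103 and 128 CPM in the mutants and at 50.6, 70.5 and 39.8 CPM in wild type. It rose by 1.17 ± 0.19 on the log2 scale (adjusted p = 0.000355). Its namesake pfkfb4a (ENSDARG00000055540, chr11:34555036-34577106, minus strand) went the other way, at 11.97, 10.3 and 13.6 CPM in the mutants and 25.6, 22.4 and 26.0 CPM in wild type, with a log2 fold change of -1.04 ± 0.14 (adjusted p = 5.08e-05). The groups did not overlap for either gene. pfkfb1, the liver enzyme of mammals, fell by 0.68 ± 0.13 and pfkfb2, known from heart, by 0.92 ± 0.19 on the log2 scale, and pfkfb2a had -0.10 ± 0.17. Exons of pfkfb2 share 6.99% of their bases with phtf1 on the same strand. Those of pfkfb2a share 6.95% with myl9 (chr23) on the other strand. Both phtf1 and myl9 (chr23) had more counts than the member they overlap.

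Pyruvate dehydrogenase kinases switch off the entry of pyruvate into the citric acid cycle. Of 6 genes none rose, 2 fell (33.3%) and 4 did not pass. pdk2 (chr12) fell by 0.64 ± 0.14 (adjusted p = 0.00172) and pdk1, a target of hypoxia signalling in mammals, by 0.53 ± 0.14 (adjusted p = 0.00572) on the log2 scale. The most abundant gene of the family by length, pdk2 (chr19), was at 220, 183 and 248 CPM in the mutants and at 269, 292 and 191 CPM in wild type. The groups overlapped, and -0.21 ± 0.17 did not pass (adjusted p = 0.301; 0.0442 without wt13). pdk4, which fasting induces in mammals, had 0.07 ± 0.11, pdk3 (chr24) 0.10 ± 0.14 and pdk3 (chr21) 0.37 ± 0.35. With upper-quartile scaling pdk4 had -0.058 and pdk3 (chr24) had -0.029.

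By length, gapdhs averaged 1669 ± 96.7 TPM in the mutants and 1107 ± 83.0 TPM in wild type (SD, n = 3 each), which ranked it 68 among all genes in the mutants and 136 in wild type. gapdh averaged 761 ± 37.4 TPM in the mutants and 1051 ± 67.1 TPM in wild type, rank 151 in the mutants and 147 in wild type. In wild type the pair was thus at about the same level by length, and in the mutants gapdhs was more than 2-fold above gapdh. This comparison rests on exon lengths of 4973 bases for gapdh and 1452 for gapdhs. By CPM, which uses no length, gapdh was above gapdhs in every library. It averaged 1974 CPM beside 1263 for gapdhs in the mutants, and 2614 beside 803 in wild type. The 55 enzymes together made up 8817, 9168 and 8521 TPM in the mutants and 10701, 10337 and 10327 TPM in wild type, which is 0.884% and 1.05% of all transcripts by this measure.

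The isozymes of each enzyme step were also summed. The largest relative difference was at fructose-1,6-bisphosphatase, with 107 ± 10.5 TPM in the mutants and 507 ± 9.28 TPM in wild type (SD, n = 3 each), 4.72-fold lower. Pyruvate kinase summed to 575 ± 38.2 TPM in the mutants and 829 ± 25.6 TPM in wild type. The step that gained most was PFKFB, at 228 ± 18.3 TPM in the mutants and 109 ± 10.7 TPM in wild type, 2.10-fold higher, followed by hexokinase, at 83.2 ± 7.54 TPM in the mutants and 49.2 ± 10.95 TPM in wild type.

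Glyceraldehyde-3-phosphate dehydrogenase summed to 2430 ± 107 TPM in the mutants and 2159 ± 147 TPM in wild type. Its lowest mutant library, at 2324 TPM, was just above the highest wild type one, at 2322 TPM. Lactate dehydrogenase summed to 804 ± 53.7 TPM in the mutants and 701 ± 18.1 TPM in wild type. Over the 16 steps, all mutant libraries were above wild type in 4, all were below in 8, and the groups overlapped in 4: glucose-6-phosphate isomerase, phosphofructokinase, triose phosphate isomerase and phosphoenolpyruvate carboxykinase. With sums on the scaled library sizes of the edgeR fit, 8 steps rather than 12 were without overlap. Glyceraldehyde-3-phosphate dehydrogenase and lactate dehydrogenase were among those that then overlapped, with s3 below wt11 in both. These sums carry no test. Of all genes tested, taken singly by CPM, 67.6% did not overlap, so the number of steps without overlap is not itself a result about the steps.

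**Figure D3:**
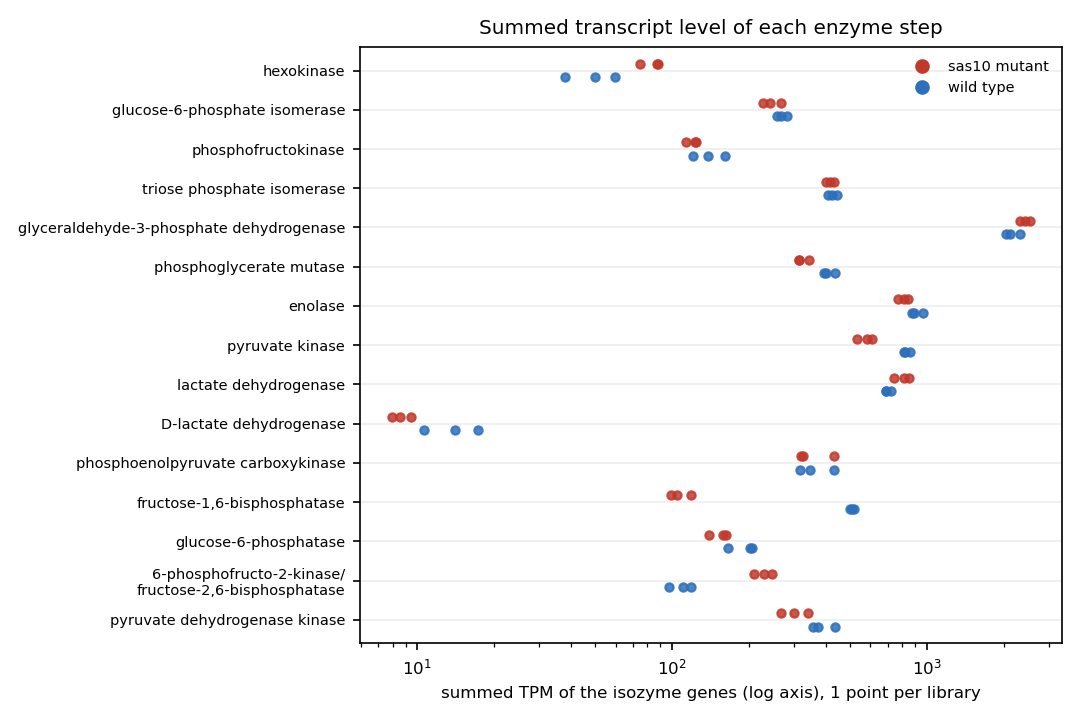
Summed TPM of the isozyme genes of 15 of the 16 enzyme steps on a logarithmic axis, 1 point per library, with sas10 mutants above wild type in each row. Fructose-1,6-bisphosphatase and pyruvate kinase lie lower in the mutants, PFKFB and hexokinase lie higher, and triose phosphate isomerase coincides.

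The isozymes that made up a step also differed. Among pyruvate kinases, pklr made up 7.10% ± 1.02 in the mutants and 29.6% ± 4.51 in wild type (SD, n = 3 each), while pkm (chr18) made up 65.5% ± 2.04 in the mutants and 32.3% ± 4.56 in wild type. The most abundant pyruvate kinase transcript was therefore pkm (chr18) in every mutant library and pkm (chr25) in every wild type library. In wt13 the copies were nearly level, at 38.0% for pkm (chr25) and 37.4% for pkm (chr18).

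gapdhs made up 68.7% ± 1.52 of its step in the mutants and 51.3% ± 0.752 in wild type. hk2 made up 27.6% ± 1.52 of hexokinase in the mutants and 9.94% ± 1.92 in wild type, and pfkfb3 made up 54.2% ± 1.38 of PFKFB in the mutants and 18.1% ± 1.64 in wild type. The share of pfkfb4 overlapped between genotypes, at 33.1% ± 2.08 in the mutants and 32.1% ± 6.54 in wild type, although its level rose. Within fructose-1,6-bisphosphatase, fbp1b made up 50.7% ± 1.44 in the mutants and 78.5% ± 0.377 in wild type.

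**Figure D4:**
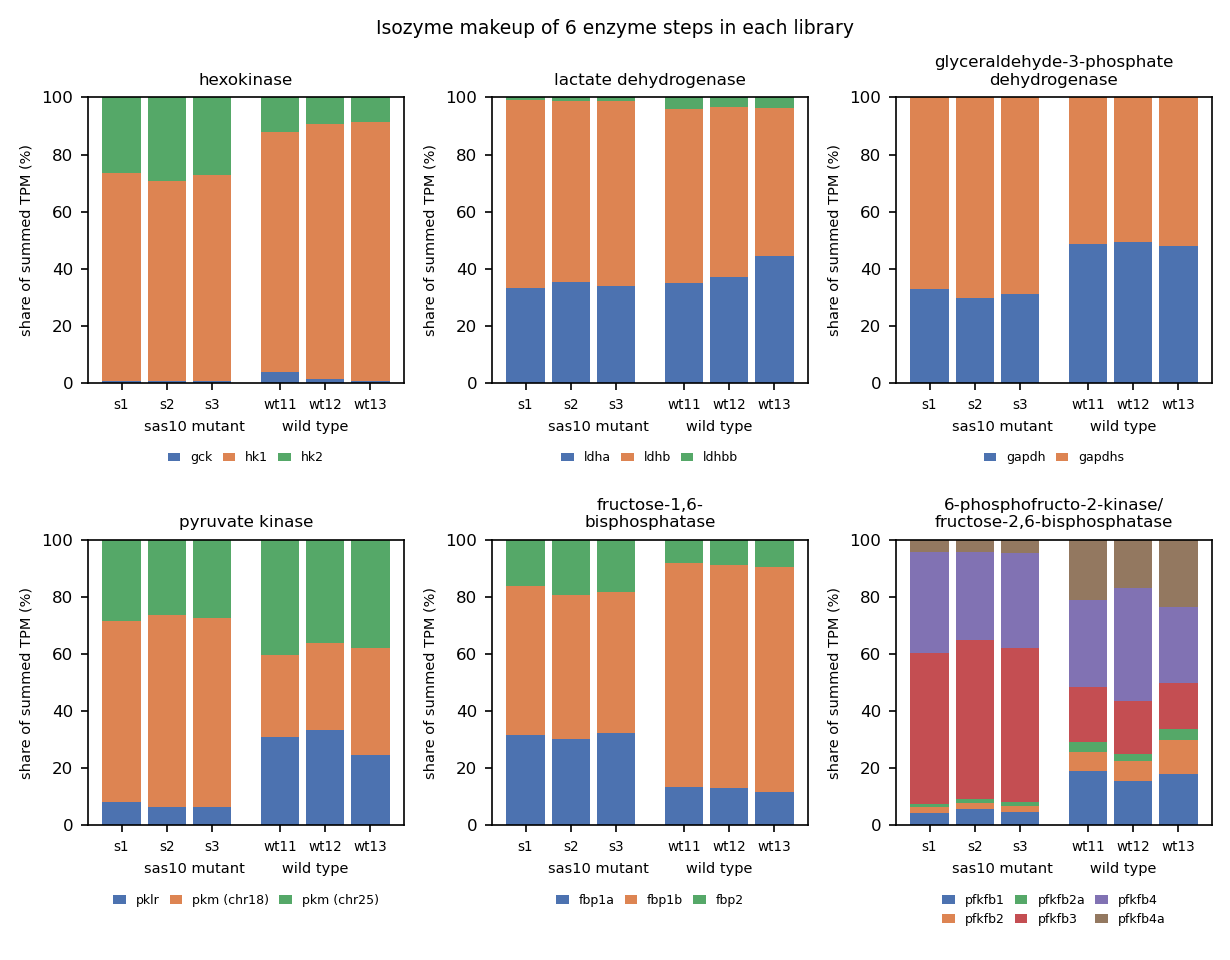
Share of the summed TPM of 6 enzyme steps that each isozyme gene made up, as stacked bars for every library, with the 3 sas10 mutant libraries left of the 3 wild type libraries. The pklr, fbp1b and ldhbb segments are smaller in every mutant bar, and the hk2, gapdhs, pkm (chr18) and pfkfb3 segments are larger.

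The ratio of a pair of genes within a library needs no scaling between libraries. Such ratios of counts per length were compared for 27 pairs, 12 of them genes under a shared symbol. In 24 pairs the libraries of the genotypes did not overlap; each then had an exact two-sided permutation p of 0.1, the smallest that 3 against 3 libraries allow, and 0.113 adjusted over the 27 pairs, so no pair could pass 0.05. The log2 ratio of pkm (chr18) to pkm (chr25) was 1.26 ± 0.0999 in the mutants and -0.25 ± 0.235 in wild type (SD, n = 3 each). That of gapdhs to gapdh was 1.13 ± 0.102 in the mutants and 0.07 ± 0.0434 in wild type.

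Further pairs stood further apart. pfkfb4 over pfkfb4a had a mean log2 ratio of 2.89 in the mutants and 0.63 in wild type, and ldhbb over ldhb had -5.90 in the mutants and -3.96 in wild type. fbp1b over fbp1a had 0.69 in the mutants and 2.64 in wild type. The pairs whose libraries overlapped were the copies of pdk3, of pfkl and of tpi1.

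Genes of neighbouring pathways were read from 6 lists, of 100 genes in all, of which 99 were tested. The called share of the lists ran from 62.5% to 77.8%, beside 62.2% of all genes tested, so their numbers of called genes are not results about the lists. In glycogen metabolism 12 of 24 genes fell and 4 rose, which is 50.0% and 16.7% beside 31.8% and 30.5% of all genes tested, with a median log2 fold change of -0.44. The lowest was gyg1 (chr24), a copy of glycogenin, which primes glycogen (-2.82 ± 0.15, adjusted p = 3.64e-08), followed by the branching enzyme gbe1 (chr15) (-1.85 ± 0.18, adjusted p = 5.16e-06). phkg1 (chr21), a catalytic subunit of the kinase that switches on glycogen breakdown, rose by 1.85 ± 0.12.

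In fructose, galactose and polyol metabolism 5 of 9 genes fell (55.6%) and 2 rose (22.2%). Among those that fell was khk, the fructokinase of liver, by 2.11 ± 0.19 on the log2 scale (adjusted p = 2.97e-06). sord, which oxidizes sorbitol to fructose, fell by 1.63 ± 0.16 (adjusted p = 4.61e-06). The lowest log2 fold change of that list was -2.84. In the pentose phosphate pathway 4 of 8 genes rose (50.0%) and 1 fell (12.5%). Its non-oxidative enzymes moved in opposite directions, with taldo1 (transaldolase) at 1.68 ± 0.11 and tkt (transketolase) at -2.84 ± 0.21 on the log2 scale.

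Of 18 genes that handle pyruvate and lactate 8 rose (44.4%) and 5 fell (27.8%). slc16a3 (chr12), a copy of the monocarboxylate transporter that exports lactate in mammals, averaged 109 CPM in the mutants and 26.6 CPM in wild type (2.03 ± 0.11 on the log2 scale, adjusted p = 3.07e-08). Its chaperone bsg rose by 1.11 ± 0.13. In the other direction, the lowest log2 fold change of this list was -4.71. At 2-fold or more, 3 of its genes fell and 3 rose. Of the glycerol and malate shuttle genes 2 of 10 rose and 5 fell (50.0%); 4 rose without wt11, and 3 fell without s2 or s3. gpd2, the mitochondrial glycerol-3-phosphate dehydrogenase, rose by 1.84 ± 0.15, and mdh1, the cytosolic malate dehydrogenase, fell by 1.37 ± 0.15 on the log2 scale. The lowest log2 fold change among the shuttle genes was -1.91.

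Among 30 tested genes of transcriptional and other regulators of the pathway 10 rose and 10 fell, 33.3% in each direction and near the shares over all genes tested. hif1a, a subunit of the hypoxia-inducible factor, rose by 1.04 ± 0.17 (adjusted p = 0.000289), and sik1, a kinase that restrains gluconeogenic transcription in mammalian liver, rose by 2.56 ± 0.15 (adjusted p = 7.93e-08). hnf4a, a liver and gut transcription factor, fell by 1.28 ± 0.12 on the log2 scale (adjusted p = 4.62e-06). gckr, which binds glucokinase in liver nuclei, had 1 count over the mutant libraries and 78 over wild type, 77.6-fold lower in the mutants with a 95% counting interval of 13.5 to 3102.

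Markers of tissues that use these isozymes also differed between genotypes. Their counts are to be read beside all genes tested, of which 62.2% were called, 30.5% higher and 31.8% lower. The called share was 60.0% for fast muscle and for erythroid markers, so those counts are not results about the markers. It was 83.3% for hepatocyte, 90.0% for neuron and 91.7% for photoreceptor markers. Of 12 hepatocyte markers 6 fell and 4 rose, their sum was 7496 to 8043 CPM in the mutants and 7835 to 8932 CPM in wild type. Among them, ahsg1, which encodes a fetuin secreted by the liver, was at 2, 1 and 0 counts in the mutants and at 378, 491 and 425 counts in wild type. fabp10a, the liver fatty acid binding protein, averaged 8.09 CPM in the mutants and 365 CPM in wild type, while the fibrinogen genes fga, fgb and fgg rose (fgb averaged 675 CPM in the mutants and 169 CPM in wild type). All 4 tested intestine markers fell, and their sum was 85.9 to 122 CPM in the mutants and 2910 to 3685 CPM in wild type; the fifth, fabp1 (chr5), was at 0 in every library. All 3 exocrine pancreas markers fell, with sums of 96.1 to 99.0 CPM in the mutants and 6920 to 11158 CPM in wild type. The hepatocyte sum overlapped between the genotypes, but it does not show how single markers moved. At 2-fold or more 5 hepatocyte markers fell and 3 rose, with log2 fold changes from -8.57 to 2.00 over the list. The part of the tissues of these 3 marker lists in the decreases of fbp1b and pklr was not tested.

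Of 10 neuron markers, which include eno2 itself, 9 fell and none rose, and their sum was 1098 to 1282 CPM in the mutants and 2041 to 2331 CPM in wild type. Of 12 photoreceptor markers 9 fell and 2 rose (1 without s2 or wt11), with sums of 367 to 492 CPM in the mutants and 2377 to 3870 CPM in wild type. Of 10 fast muscle markers 4 rose and 2 fell, with sums of 69531 to 71391 CPM in the mutants and 44962 to 63415 CPM in wild type, where wt11 was the highest. Erythroid markers, 5 genes of which 2 rose and 1 fell (none fell when any library but wt13 was left out), summed to 329 to 587 CPM in the mutants and 114 to 171 CPM in wild type. Of 5 slow muscle markers 3 rose and 2 fell (1 with a stricter filter on low counts; 2 rose without s3 or with upper-quartile scaling), with sums of 895 to 995 CPM in the mutants and 651 to 724 CPM in wild type. Of 5 macrophage and neutrophil markers 3 were tested, of which 2 rose (1 without wt13) and 1 fell, with sums of 73.6 to 148 CPM in the mutants and 32.3 to 60.7 CPM in wild type. None of 5 heart markers passed edgeR's test, none had an unadjusted p under 0.05 by it, and none passed with DESeq2 or limma voom; 1 fell with upper-quartile scaling. Their sums overlapped, at 55.4 to 63.9 CPM in the mutants and 53.2 to 68.8 CPM in wild type. The part of these tissues in the changes of eno2, of the muscle-type genes and of pklr was not tested.

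**Figure D5:**
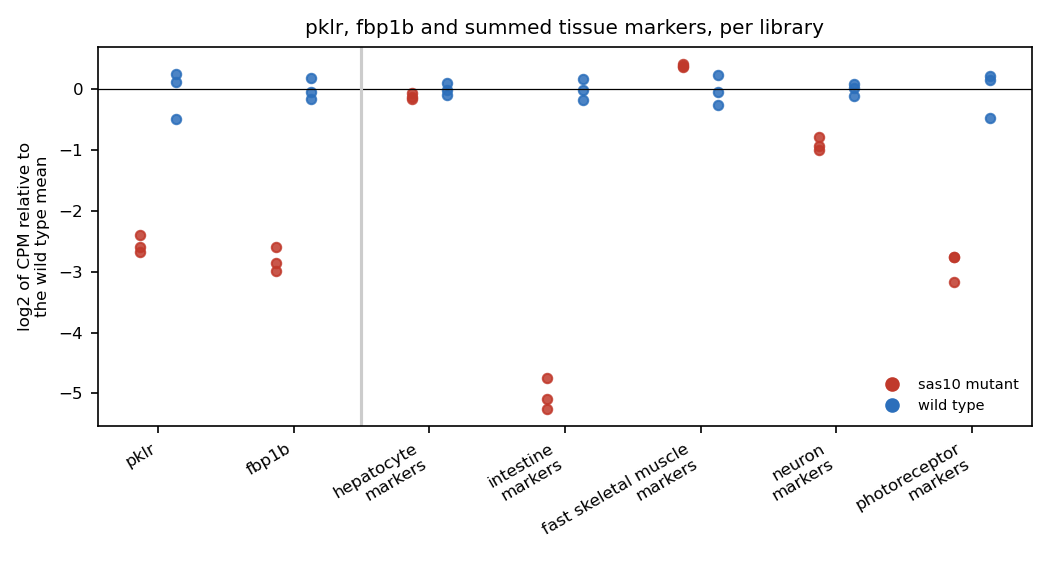
Log2 of the CPM of pklr and fbp1b, and of the summed CPM of 5 marker lists, in each library relative to the wild type mean, with sas10 mutants left of wild type. The sum of the hepatocyte markers is within 1 log2 unit of the wild type mean in every library, the intestine markers lie lowest in the mutants, and the fast muscle markers lie above the wild type mean in the mutants.

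The authors' deposited table of their own comparison lists 24 of the 56 members, 5 higher and 19 lower in the mutants. That is 42.9% of the members, beside 8574 genes or 26.4% of all 32520 genes of the count table. The filter here left out 10812 of those genes but no member, so the shares have unlike bases. The number listed is therefore not itself a result about the members. The authors' table holds adjusted p-values up to 0.0494 and changes of at least 1.5-fold, and 24 is also the number of members that were called at that fold here. The sets are not the same. The authors do not list g6pc1 (chr3), and pdk1, which they list, was 1.44-fold lower here. All 24 listed have the direction found here. In the authors' deposited table fbp1b has a log2 fold change of -2.87 and pfkfb3 one of 2.65.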

How the data were processed

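Raw counts of read pairs over exons were deposited per gene; the authors made them with featureCounts 2.0.1 on the GRCz11 annotation of Ensembl release 105 with no strand option, per the file headers. HISAT2 2.2.1, fastp 0.20.0 and DESeq2 1.40.2 are named in the submitters' processing notes. A second deposited table gives the authors' log2 fold changes with p-values, a Wald score and a mean signal of normalized counts, per the file headers. The deposited precursor rRNA table was not used here.

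Column headings give the genotype and a number, which the labels do not tie to their replicate numbers. A name table gave symbols to 29201 of 32520 genes; no gene was matched to pgk1, which was not analysed here. The test was that of edgeR 4.0.16 under R 4.3.3 (TMM scaling, default filter keeping 21708 genes, robust quasi-likelihood test, Benjamini-Hochberg adjustment over all genes tested). CPM used TMM-scaled library sizes, and TPM was computed from counts and exon lengths. Pair ratios used a pseudocount of 0.5 counts. The counting interval covers counting error only. Pairs of libraries of 1 genotype gave chi-square values of 7.67 to 32.2 for each degree of freedom, above counting noise, so none was counted as a repeat deposit. The scripts were tested on simulated data in which far fewer genes changed than were called here. That test therefore does not cover the scaling under so wide a difference between genotypes. Alternatives were other scalings, filters and tools (DESeq2 1.42.0, limma 3.58.1) leaving out each library and, added after the data were seen, a block on the last digit of the headings. Reads shared by near-identical copies are uncertain.

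Values of every library are given for the 3 called members with the largest change and for the most abundant member of each role; pkm (chr18), gapdh, gck, pck2 and g6pc1 (chr12) were added after their values were seen, as were the genes named from the other lists. Of what this rule takes, 1 result is not reported here. The members and lists were chosen with earlier results of these data known.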

Additional observations from a re-analysis of the deposited data

How the results depend on the processing

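Across other scalings, filters and tools and with each library left out, the members that rose numbered 9 to 13 and those that fell 19 to 29, and their median log2 fold change ran from -0.44 to -0.20. Over all genes tested, 5630 to 7129 rose and 5937 to 8047 fell under the same settings, of 20201 to 28103 genes. The median of all genes ran from -0.17 to -0.01. Gained and lost member calls are to be read beside these. Of the 35 called members 28 were called without any 1 library. Upper-quartile scaling shifted the median of all genes by -0.13 on the log2 scale and turned 6 uncalled members: ldha to -0.039, pdk3 (chr24) to -0.029, pdk4 to -0.058, aldoa (chr3) to -0.0062, gpi (chr25) to -0.017 and tpi1 (chr16) to -0.075. With 1 library left out, the log2 fold change ran from -0.29 to 0.047 for pkmyt1, from -0.36 to 0.068 for pfkp (chr2) and from -0.0100 to 0.20 for tpi1 (chr16). The cause was not tested. The labels do not say that the numbers in the column headings pair libraries across genotypes. Deviations from the group means across genes were correlated between libraries. Those with the same last digit had 0.12 (s1 and wt11), 0.053 (s2 and wt12) and 0.24 (s3 and wt13). The other pairs ran from -0.20 (s3 and wt11) to 0.074 (s2 and wt11). Each wild type library thus correlated best with the mutant library of its last digit, though s2 correlated best with wt11. A pairing was neither stated nor settled by these values, and the main test did not use that last digit. With a replicate block on that last digit, chosen after seeing the data, 6886 of the 21708 genes tested rose and 7138 fell. Of the members 13 rose and 27 fell, with a median log2 fold change of -0.31, and all 35 called members remained called. The 5 added were g6pc3, pck1, eno1 (chr23), eno3 and tpi1 (chr19), with adjusted p of 0.0134 to 0.0393. The precision for gck and g6pc1 (chr3) was limited by their low counts.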

Other observations

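Some members lie next to each other in GRCz11. fbp2 and fbp1a are 3594 bases apart on the same strand of chromosome 5, and both fell in the mutants. eno2 and tpi1 (chr19) are 3486 bases apart on opposite strands; eno2 fell and tpi1 (chr19) did not pass the test. pfkm (chr6) and pfkfb4 are 228 kb apart on the same strand of chromosome 6, and pfkm (chr6) fell while pfkfb4 rose. On chromosome 11, which also holds utp3, there are 3 members: pfkfb2 at 7.57 Mb, pfkfb4a at 8.18 Mb and pfkl (chr11) at 18.54 Mb from it. All 3 fell, and whether alleles linked to the mutation had a part in this was not tested.

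Within wild type, wt11 held the highest CPM for 33 of the 56 members and wt13 the lowest for 32. For some members this order depended on the measure: pgam1a, eno2 and ldha were highest in wt11 by CPM but in wt13 by TPM. The 55 enzymes together made up 10701 TPM in wt11, 10337 in wt12 and 10327 in wt13. The same counts were not taken over all genes tested, so this order is not a result about the members. The median coefficient of variation of the CPM of the members was 8.96% in the mutants and 15.2% in wild type. By CPM, pck1 varied widely in both genotypes, with a coefficient of variation of 22.0% in the mutants and 31.1% in wild type.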
